A study of Gasterosteus aculeatus with 60 samples.

Results

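The genes described here are the 100 that stood highest in challenged over control males 30 minutes after a territorial challenge when the diencephalon and the telencephalon were read together. They were chosen from the 17536 genes of the count table. Counts were scaled to a common library total (cpm, counts of a gene relative to all counted reads), 16444 genes with a mean of at least 1 cpm in each region were kept, and each gene received an unequal-variance t statistic of log2(cpm + 1), challenged minus control, at 30 min in each region. Genes were ranked by the smaller of their 2 t values. EGR4 (1 of 2) was left out by name, which changed nothing, since it would have ranked 225. The first member had a smaller t of 4.41, the last 2.39. Just inside the limit were ENSGACG00000018263, cacng6a and ENSGACG00000011307, with smaller t values of 2.39, 2.39 and 2.39, and just outside were ENSGACG00000017192, WNK4 (2 of 2) and ENSGACG00000000083, with 2.38, 2.36 and 2.35, so the limit cut through a continuous ranking. A gene name was found for 36 members and a position for 42, and the other 64 members are known by Ensembl identifier only.

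The fish were adult male threespined sticklebacks (Gasterosteus aculeatus) taken from a freshwater creek, housed singly with nest material under a long-day light cycle, and all in the phase in which a male defends a territory. The territorial challenge was staged with a flask placed in the home tank. It held a rival male, which was not kin and was the smaller of the pair, for the challenged group, and nothing for the controls. Brains were taken at 30, 60 or 120 min, and both the diencephalon (hypothalamus, thalamus and neighbouring nuclei) and the telencephalon (the forebrain lobes) of each fish gave an RNA-seq library. There were 5 challenged and 5 control males at each time, 30 fish and 60 libraries in all, with no fish sampled more than once.

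A male that meets an intruder first sees, then threatens and attacks it, and the neurons engaged switch on genes within minutes. Immediate early genes such as the fos, jun and egr families are the best known of these, and their transcripts normally fade within an hour or so, while the enzymes, channels and receptors that set a neuron's metabolism and excitability turn over more slowly. Each brain region holds neurons, glia, vessel cells and blood, so in such bulk tissue fewer cells of a type and less RNA per cell cannot be told apart.

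The libraries held 17705327 to 55299804 counts (median 30159568). Markers chosen to separate the regions followed the labels: the summed telencephalic markers reached 111 to 188 cpm in the diencephalon libraries and 459 to 1066 cpm in the telencephalon libraries. The summed diencephalic markers separated the regions less well, with 103 to 900.2 cpm in the diencephalon and 19.9 to 1213 cpm in the telencephalon. In 3 fish their sum was lower in the diencephalon than in the telencephalon. It was 302 and 1213 cpm in challenged fish 38 of 30 min and 264 and 1033 cpm in control fish 12 of 30 min. In challenged fish 9 of 120 min it was 103 and 781 cpm. These 3 fish went against the labels for this list. Their telencephalic markers were higher in the telencephalon, but the sums there, 459, 652 and 614 cpm, were the lowest. The other telencephalon libraries had 691 to 1066 cpm. Challenged fish 13 of 120 min had similar diencephalic sums in both regions, 476 and 446 cpm. Markers of tissues outside both regions, and those of microglia and leukocytes, were uneven between fish. Summed photoreceptor markers were 2169 cpm in the diencephalon and 973 cpm in the telencephalon of 1 control male of 60 min (fish 35), against 18.8 to 42.8 and 2.55 to 14.1 cpm in the challenged males of that time. Summed microglia and leukocyte markers were 2379 and 1142 cpm in another control male of 60 min (fish 8). In challenged fish 9 of 120 min they were 1605 and 1719 cpm.

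At 30 min the members' values are those that chose them and are given as a description. The median log2 fold change of the 100 members was 0.25 in the diencephalon and 0.29 in the telencephalon, against -0.0020 and -0.0010 over all genes tested. Markers of other tissues differed in the same fish. In challenged diencephalon 7 of 8 pituitary markers were lower at an unadjusted p under 0.05 (summed 3.00 to 242 cpm in challenged males and 3.77 to 6579 cpm in controls, the highest in fish 12), as were 9 of 10 skeletal muscle markers (10.2 to 19.1 cpm in challenged males and 13.7 to 255 cpm in controls). In challenged telencephalon 5 of 6 epithelium markers were lower (23.5 to 78.1 cpm in challenged males and 23.5 to 1434 cpm in controls, the highest in fish 17). Pigment-cell markers went the other way in challenged telencephalon, with 2 of 6 higher (8.50 to 13.7 cpm in challenged males and 4.31 to 10.4 cpm in controls). The member tyrp1a is 1 of these 6. Of 4 lens markers 1 was higher there (0.240 to 9.56 cpm in challenged males, the highest in fish 23, and 0.376 to 1.25 cpm in controls). The part of all these markers in the choice of the members was not tested. Most of the members' differences were small, with 67 members under 0.5 in both regions and 10 members above 1 in both. All 5 challenged males lay above all 5 controls for 21 members in the diencephalon (0.499% of all genes tested) and for 27 in the telencephalon (0.533%). An unadjusted edgeR p under 0.05 was reached by 59 members in the diencephalon and 68 in the telencephalon, and no member was lower. Of all genes 1.44% and 2.02% were higher by the same rule, and 1.84% and 2.12% were lower. These counts, those of groups apart and the calls of members given next come from the fish that chose the members. They follow from the choice and are no test of the members. After Benjamini-Hochberg adjustment over all 6 comparisons no gene of the whole table passed 0.1 at 30 min by edgeR's quasi-likelihood test, while edgeR's likelihood ratio test called 10 genes in the diencephalon and 40 in the telencephalon, 2 members among each, and DESeq2 called 7 genes with 4 members and 47 genes with 6 members.

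The 30 min difference was not seen at the later times. At 60 min the members' median log2 fold change was -0.027 in the diencephalon (all genes -0.021) and -0.066 in the telencephalon (all genes -0.015). At 120 min it was 0.0082 in the diencephalon (all genes 0.0029) and -0.0044 in the telencephalon (all genes 0.012). The medians lay close to those of the whole table in the diencephalon, and at 120 min in the telencephalon. In the telencephalon at 60 min the members lay somewhat lower, with quartiles of -0.19 and 0.029 against -0.14 and 0.099 for all genes. These later fish entered the filter on mean cpm but not the ranking that chose the members. When the members were chosen again without fish 38, in which the diencephalic markers went against the labels, 53 of the 100 were the same and the medians were -0.035 and -0.049 at 60 min and -0.027 and -0.0069 at 120 min. Without fish 12 55 were the same, with -0.021 and -0.074 at 60 min and -0.0087 and -0.011 at 120 min. Without fish 9 the 120 min medians were -0.0035 and 0.000057.

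**Figure D1:**
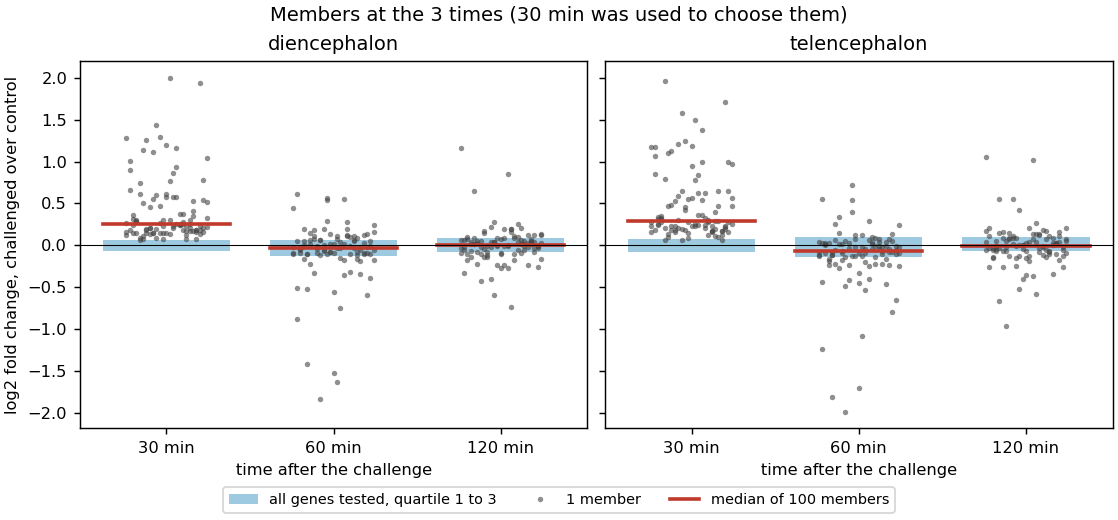
Log2 fold change, challenged over control, of each of the 100 members (points) at 30, 60 and 120 min after the challenge, with the members' median (red line) and the interquartile range of all genes tested (blue band). The members sit above 0 at 30 min, where they were chosen, and around the blue band at 60 and 120 min, where their medians lie between -0.066 and 0.0082.

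Direction at the later times was mixed. At 60 min 42 members in the diencephalon and 34 in the telencephalon had a positive fold change, where 43.1% and 46.1% of all genes did. At 120 min the counts were 52 and 49, where 51.0% and 54.0% of all genes were positive. In all 4 later comparisons 11 members were positive, and 17 were negative in all 4. Both regions come from the same fish, so the 4 comparisons are not independent, and the share of all genes was not counted. A later fold change as large as the member's own at 30 min was seen in 3 members at 60 min and 4 at 120 min in the diencephalon, and in 1 and 2 in the telencephalon. The 30 min values were picked as high, so lower values in other fish were favoured by the choice itself. These counts therefore do not measure a decline.

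No member passed the edgeR quasi-likelihood test at an adjusted p under 0.1 at 60 or 120 min in either region, and neither did any of the 17448 genes tested in the diencephalon or the 17247 in the telencephalon (0% called). The smallest adjusted p-values among members were 0.549 and 0.534 at 60 min and 0.544 and 0.654 at 120 min, diencephalon first. At an unadjusted p under 0.05, 3 members were higher and 7 lower in challenged diencephalon at 60 min (3.85% and 6.61% of all genes), and 1 was higher and 7 lower in challenged telencephalon (7.11% and 5.22%). At 120 min 2 members were higher and 1 lower in the diencephalon (3.54% and 2.38%), and 3 were higher and 3 lower in the telencephalon (2.5% and 1.48%). With 100 members these counts read as percentages, and they lie near those of the whole table, with the widest gap for members higher in the telencephalon at 60 min (1 against 7.11%). The likelihood ratio test called 50 genes in the diencephalon and 67 in the telencephalon at 60 min and 17 and 6 at 120 min, and DESeq2 called 76, 93, 26 and 7 in the same order, with 0 members among them in each case. A test of both later times at once called 0 members in either region (0% of all genes). At an unadjusted p under 0.05 it found 6 members in the diencephalon and 7 in the telencephalon, where all genes gave 8.88% and 8.89%.

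The same course can be read fish by fish from the same data, where the separation at 30 min follows from the choice of the members. The mean deviation of the 100 members from their average over the 30 libraries of a region, in log2(cpm + 1), ran from 0.142 to 0.212 in challenged and from -0.241 to -0.175 in control diencephalon at 30 min, and from 0.177 to 0.246 in challenged and -0.256 to -0.214 in control telencephalon. In the 60 min fish it averaged -0.022 ± 0.048 in challenged and 0.030 ± 0.081 in control diencephalon (SD, n = 5 each). In the telencephalon of the same fish it averaged -0.068 ± 0.037 in challenged and 0.050 ± 0.070 in control males (SD, n = 5 each). The 2 groups overlapped in both regions at 60 min. In the telencephalon the overlap was narrow, with -0.123 to -0.017 in challenged and -0.021 to 0.161 in control males. The control with the highest value in each region was fish 35. Without that fish the members' median log2 fold change at 60 min was 0.00019 in the diencephalon and -0.035 in the telencephalon. At 120 min the averages were 0.017 ± 0.019 in challenged and 0.0057 ± 0.086 in control diencephalon, and 0.0086 ± 0.046 in challenged and 0.025 ± 0.088 in control telencephalon (SD, n = 5 each). Challenged males of 120 min lay inside the range of the controls in both regions.

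**Figure D2:**
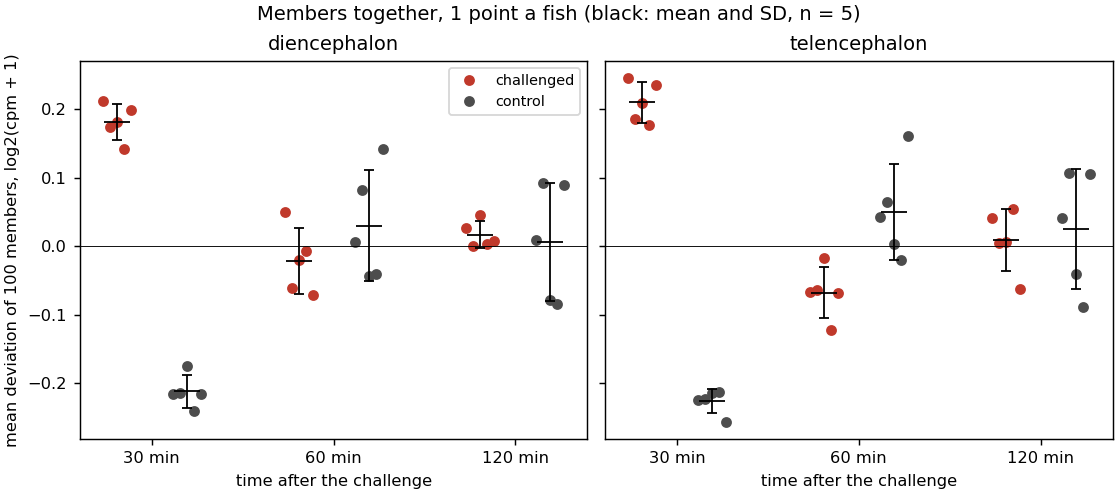
Mean deviation of the 100 members from their average in the region, in log2(cpm + 1), with 1 point a fish for challenged (red) and control (grey) males and the mean and SD of each group of 5 in black. At 30 min, which chose the members, challenged males sit near 0.2 and controls near -0.2. At 60 and 120 min the groups of each region overlap. The overlap is narrow in the telencephalon at 60 min, where challenged males run from -0.123 to -0.017 and controls from -0.021 to 0.161.

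The metabolic members were led by idh3a, the catalytic subunit of the mitochondrial NAD-dependent isocitrate dehydrogenase of the citric acid cycle (Ensembl 75, groupXIX, 11973704 to 11978272). In the diencephalon at 30 min idh3a had 70.4, 75.9, 67.6, 70.7 and 78.1 cpm in challenged males, against 72.9, 23.2, 21.3, 21.3 and 23.6 cpm in control males. In the telencephalon of the same fish it had 65.7, 72.7, 65.2, 61.9 and 80.2 cpm in challenged males, against 72.5, 19.2, 23.5, 23.4 and 21.5 cpm in controls. Every fish thus had either a low or a high level, the same in both regions, and 4 of the 5 controls of 30 min were low. Over all 30 fish 8 were low, at 19.7 to 30.6 cpm in the diencephalon and 19.2 to 27.2 cpm in the telencephalon, and 22 were high, at 64.9 to 83.4 and 61.9 to 81.3 cpm. At 60 min 3 of 5 challenged and 4 of 5 control males were high, and at 120 min 4 of 5 challenged and 5 of 5 controls. The log2 fold changes at the later times were -0.22 ± 0.39 in the diencephalon and -0.22 ± 0.38 in the telencephalon at 60 min, and -0.23 ± 0.39 and -0.26 ± 0.38 at 120 min (standard errors).

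The other metabolic members had no such levels. Galm, which interconverts the forms of galactose before its breakdown, had 82.8, 65.0, 75.8, 67.5 and 61.5 cpm in challenged diencephalon at 30 min, against 64.4, 42.6, 51.6, 43.1 and 53.0 cpm in controls. At 60 min galm had 61.9, 63.2, 68.1, 59.1 and 58.1 cpm in challenged diencephalon, against 57.0, 79.2, 53.6, 53.8 and 64.5 cpm in controls. The groups overlapped by 1 control at 30 min and widely at 60 min. Timm17b, part of the channel that brings proteins into the mitochondrial matrix, had log2 fold changes of 0.36 and 0.48 at 30 min and -0.014 and -0.010 at 60 min, diencephalon first. Micu2, a regulator of the mitochondrial calcium uniporter, had 0.30 and 0.32 at 30 min and -0.17 and -0.24 at 60 min. These 4 genes are members among the 16 of a list of mitochondrial and carrier genes. That list was chosen with earlier results of these data known, like all the lists used here. At 60 min 0 of its genes were higher and 4 lower in challenged diencephalon at an unadjusted p under 0.05 (3.85% and 6.61% of all genes). In challenged telencephalon 2 were higher and 3 lower (7.11% and 5.22%), with none past the adjusted threshold in either region.

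The complement system gave 2 members. C3 (8 of 8) is 1 of 8 stickleback genes named for complement component 3, the central protein of the complement cascade (groupIX, 19651307 to 19670618), and since reads that fall on more than 1 gene were not counted, its counts are uncertain to the extent that the copies resemble each other. At 30 min C3 (8 of 8) had 24.0, 43.8, 45.5, 21.6 and 38.6 cpm in challenged diencephalon, against 22.8, 21.7, 24.0, 4.94 and 5.70 cpm in controls. In the 60 min males it had 25.9, 5.62, 5.38, 5.09 and 0.729 cpm in challenged diencephalon, against 26.9, 35.9, 5.09, 50.8 and 27.3 cpm in controls. The groups overlapped at both times, and at 60 min the order had turned round, with 4 of 5 challenged males low and 4 of 5 controls high. The log2 fold change at 60 min was -1.83 ± 0.67 in the diencephalon and -1.99 ± 0.69 in the telencephalon, with edgeR adjusted p-values of 0.634 and 0.594, and without single fish it ran from -2.80 to -1.52 and from -3.11 to -1.63. At 120 min it was -0.12 ± 0.64 and 0.086 ± 0.65. The unnamed member ENSGACG00000001742 followed C3 (8 of 8) fish by fish, with a Pearson correlation of 0.97 in each region over the 20 fish of 60 and 120 min, and its 60 min values of -1.52 and -1.70 lay close to those of C3 (8 of 8). The summed microglia and leukocyte markers at 60 min were 202 to 341 cpm in challenged and 182 to 2379 cpm in control diencephalon, where the control next to fish 8 had 229.8 cpm, and their part in the C3 (8 of 8) values was not tested.

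Serping1, the inhibitor of the first complement component and of contact-phase proteases, was read at low depth. It had 5.09, 3.51, 4.38, 5.15 and 1.16 cpm in challenged telencephalon at 30 min, against 1.27, 0.508, 1.73, 2.04 and 0.276 cpm in controls. In the 60 min males serping1 had 1.96, 1.72, 4.11, 0.939 and 0.960 cpm in challenged telencephalon, against 3.79, 5.51, 3.69, 1.90 and 2.08 cpm in controls. The groups overlapped at both times, through 1 low challenged male at 30 min. The log2 fold change at 60 min was -0.59 ± 0.57 in the diencephalon and -0.80 ± 0.52 in the telencephalon, and without fish 8, the control with the high microglia and leukocyte sum, it was 0.46 and -0.55. A list of complement and immune genes held 14 genes. At 60 min 0 of them were higher and 6 lower in challenged diencephalon at an unadjusted p under 0.05 (3.85% and 6.61% of all genes). In challenged telencephalon 0 were higher and 4 lower (7.11% and 5.22%). Microglia and leukocyte markers, which share irf8 with this list, were also lower at 60 min. In the diencephalon 6 of 10 were lower at an unadjusted edgeR p under 0.05 (median log2 fold change -1.27, 0 positive). In the telencephalon 1 of 10 was lower (median -0.68, 1 positive). Their sum at 60 min was highest in control fish 8 in both regions, and neither list was counted without that fish. The part of these markers was not tested. At 120 min 2 of the complement and immune genes were higher and 0 lower in each region, and none passed the adjusted threshold at any time. Of all genes 3.54% were higher and 2.38% lower in the diencephalon at 120 min, and 2.5% and 1.48% in the telencephalon.

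Neuronal channels and receptors gave 3 listed members. Cacna1g, a T-type calcium channel subunit that lets neurons fire in bursts (groupV, 6457076 to 6571528), drew the most reads of all members, a rank that also depends on gene length. At 30 min it had 161, 136, 167, 110.2 and 140.1 cpm in challenged diencephalon, against 95.2, 104, 106, 101 and 90.5 cpm in controls. In the telencephalon it had 384, 389.7, 409, 274 and 271 cpm in challenged males, against 239.9, 207, 229, 297 and 267 cpm in controls, so that the groups were apart in the diencephalon and overlapped in the telencephalon. At 60 min the log2 fold change of cacna1g was 0.15 ± 0.13 in the diencephalon and 0.25 ± 0.16 in the telencephalon, and at 120 min 0.052 ± 0.13 and 0.16 ± 0.16, with groups that overlapped in both regions at both times. Gabbr1b, a subunit of the metabotropic GABA receptor, had 0.27 and 0.28 at 30 min, 0.095 and 0.082 at 60 min and -0.061 and -0.11 at 120 min.

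Gnrhr1, a receptor for gonadotropin-releasing hormone, was among the members with the smallest p at 120 min, in the opposite direction to 30 min. At 30 min gnrhr1 had 24.9, 23.7, 24.0, 23.0 and 23.2 cpm in challenged diencephalon, against 18.1, 17.5, 19.6, 19.7 and 20.3 cpm in controls, and the groups did not overlap in either region. At 120 min it had 17.9, 14.7, 26.0, 17.9 and 18.8 cpm in challenged diencephalon, against 22.1, 19.5, 28.5, 18.9 and 23.3 cpm in controls, which overlapped. The fold changes at 120 min were -0.23 ± 0.11 in the diencephalon and -0.40 ± 0.18 in the telencephalon, with edgeR unadjusted p-values of 0.037 and 0.0348 and adjusted values of 0.722 and 0.721. Without control fish 20 they were -0.13 and -0.22. The list of channels and receptors held 23 genes. At 60 min 9 were higher and 3 lower in challenged diencephalon at an unadjusted p under 0.05 (3.85% and 6.61% of all genes). In challenged telencephalon 11 were higher and 0 lower (7.11% and 5.22%). None of the 3 members was among these genes.

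Jund, a JUN family transcription factor, was the only member on a list of 25 immediate early genes. It had 25.8, 23.9, 24.6, 21.0 and 29.5 cpm in challenged telencephalon at 30 min, against 18.5, 23.3, 16.9, 18.6 and 17.1 cpm in controls. At 60 min jund had 17.1, 24.9, 27.4, 25.9 and 21.2 cpm in challenged telencephalon and 22.6, 22.0, 23.9, 25.0 and 25.7 cpm in controls, and at 120 min 18.6, 15.5, 18.5, 18.9 and 15.6 cpm in challenged and 18.6, 19.9, 19.8, 17.5 and 18.4 cpm in control males. The difference of 30 min, 0.21 in the diencephalon and 0.39 in the telencephalon, was followed by 0.083 and -0.020 at 60 min and by -0.0062 and -0.10 at 120 min. The groups overlapped at all 3 times. Outside the members egr1 ranked 112, with 0.21 and 0.25 at 30 min, and fos ranked 328, with 0.34 in the diencephalon and 0.77 in the telencephalon. Over the 25 genes 2 were higher and 0 lower in the diencephalon at 30 min at an unadjusted p under 0.05, and 8 higher and 1 lower in the telencephalon. At 60 min the counts were 2 and 3, then 0 and 2, and at 120 min 3 and 0, then 2 and 0. Of all genes 1.44% and 2.02% were higher at 30 min, 3.85% and 7.11% at 60 min and 3.54% and 2.5% at 120 min, diencephalon first. Lower were 1.84% and 2.12% at 30 min, 6.61% and 5.22% at 60 min and 2.38% and 1.48% at 120 min. The list's median log2 fold change was 0.058 and 0.079 at 30 min, 0.027 and -0.030 at 60 min and 0.24 and 0.18 at 120 min. None passed the adjusted threshold.

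Among genes of DNA replication and chromatin the members are rpa3, a subunit of the protein that coats single-stranded DNA, and ATAD2 (1 of 2), a chromatin-bound ATPase. Rpa3 had 46.7, 58.0, 62.0, 54.6 and 73.3 cpm in challenged telencephalon at 30 min, against 45.5, 31.4, 26.1, 45.3 and 37.8 cpm in controls. At 60 min its values were 69.2, 28.1, 51.4, 25.7 and 48.4 cpm in challenged telencephalon and 41.5, 47.6, 67.8, 73.3 and 79.1 cpm in controls, and the groups, apart at 30 min, overlapped. Its log2 fold change was -0.46 ± 0.24 in the telencephalon and -0.34 ± 0.22 in the diencephalon. ATAD2 (1 of 2) had 0.94 and 1.00 at 30 min and -0.36 and -0.40 at 60 min. Among the 12 genes of the replication list, 0 were higher and 4 lower in challenged diencephalon at 60 min at an unadjusted p under 0.05 (3.85% and 6.61% of all genes). In challenged telencephalon 0 were higher and 3 lower (7.11% and 5.22%), none past the adjusted threshold in either region. The lists of stress-axis genes and of neurofilaments held no member.

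Members with large later values included genes known from the eye and skin. Tyrp1a, a melanin-synthesis enzyme of pigment cells, had 4.88, 1.59, 4.50, 2.34 and 3.97 cpm in challenged telencephalon at 30 min, against 0.533, 0.772, 0.958, 1.39 and 0.728 cpm in controls. At 60 min tyrp1a had 0.668, 1.29, 1.09, 0.969 and 1.81 cpm in challenged telencephalon, against 2.24, 1.07, 3.99, 1.27 and 12.2 cpm in controls. The highest control was fish 35, in which the 6 pigment-cell markers, tyrp1a among them, summed to 104 cpm in the diencephalon and 48.8 cpm in the telencephalon, against 6.22 to 10.4 and 4.97 to 8.70 cpm in the challenged males of 60 min. The fold change of tyrp1a at 60 min was -1.42 ± 0.45 in the diencephalon and -1.81 ± 0.53 in the telencephalon (edgeR adjusted p = 0.549 and 0.534), the smallest p-values of any member at that time. Without fish 35 it was -0.33 and -0.86. The part of pigment cells in the tyrp1a values was not tested.

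Cnga3a, a subunit of the cyclic nucleotide-gated channel of cone photoreceptors, had 33.0, 33.2, 26.9, 48.7 and 24.3 cpm in challenged telencephalon at 30 min, against 18.5, 20.3, 25.1, 11.4 and 21.1 cpm in controls. At 60 min cnga3a had 4.82, 20.6, 17.1, 19.1 and 21.9 cpm in challenged telencephalon, against 20.1, 49.8, 30.0, 44.1 and 34.1 cpm in controls, so that the order had turned round and 1 control lay inside the challenged range. The fold change was -1.63 ± 0.61 in the diencephalon and -1.08 ± 0.35 in the telencephalon, with edgeR adjusted p-values of 0.634 and 0.564. Without fish 35, the male with the high photoreceptor sum, it was -1.52 and -1.10. All 14 photoreceptor markers were lower in challenged males of 60 min in both regions at an unadjusted p under 0.05. At 120 min 11 of them were higher in the diencephalon by the same rule, where 1 challenged male (fish 19) had a sum of 1125 cpm. In the telencephalon 6 were lower, where 1 control male (fish 20) had a sum of 120 cpm. The other controls there had 3.25 to 18.1 cpm and the challenged males 5.15 to 20.6 cpm. The part of photoreceptor markers in the cnga3a values was not tested.

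Cry3, a cryptochrome of the light-responsive and circadian gene family (groupXIX, 1002682 to 1016637), was the only named member other than trmt61a with a later fold change as large as its own at 30 min. At 30 min cry3 had 37.5, 31.7, 41.1, 31.3 and 34.9 cpm in challenged telencephalon, against 24.3, 25.5, 31.1, 22.7 and 24.0 cpm in controls. At 60 min cry3 had 51.0, 38.2, 44.2, 50.2 and 33.8 cpm in challenged telencephalon, against 35.1, 32.1, 26.5, 24.5 and 33.1 cpm in controls. The groups did not overlap in the telencephalon at 30 min, and at 60 min the lowest challenged male lay below the highest control. The fold change at 60 min was 0.54 ± 0.25 in the diencephalon and 0.54 ± 0.24 in the telencephalon, with edgeR adjusted p-values of 0.732 and 0.708, and at 120 min it was 0.037 ± 0.25 and 0.0067 ± 0.24. At 120 min challenged males spanned 13.1 to 45.9 cpm in the telencephalon and controls 21.9 to 37.2 cpm.

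ENSGACG00000000062 (scaffold_99, 46014 to 49113), a gene with only a placeholder name, was the only member whose groups did not overlap at any later time. It had 64.9, 62.4, 62.0, 66.8 and 70.0 cpm in challenged diencephalon at 60 min, against 56.5, 59.1, 53.9, 52.6 and 60.2 cpm in controls, a log2 fold change of 0.19 ± 0.07 with an edgeR adjusted p of 0.603. Groups did not overlap in this direction for 1.17% of all genes in that comparison. At 120 min its fold change was -0.019 and -0.016. In the other later comparisons 0 members had groups apart, where the shares of all genes were 0.292% lower in the diencephalon at 60 min and 0.644% higher and 0.644% lower in the telencephalon. At 120 min they were 0.344% higher and 0.332% lower in the diencephalon and 0.249% higher and 0.29% lower in the telencephalon.

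The unnamed gene ENSGACG00000019882 had the smallest p of any member at 120 min in both regions, with 47.9, 48.4, 41.8, 39.0 and 48.6 cpm in challenged diencephalon, against 42.2, 39.1, 40.9, 37.7 and 36.4 cpm in controls. The 2 groups overlapped. Its fold change was 0.21 ± 0.06 in the diencephalon and 0.17 ± 0.07 in the telencephalon (edgeR adjusted p = 0.544 and 0.654). ENSGACG00000010193 had 0.17 in the diencephalon and 0.082 in the telencephalon at 120 min, with edgeR adjusted p-values of 0.747 and above. Inpp5f, a phosphoinositide phosphatase with 0.24 in each region at 30 min, had -0.10 in the diencephalon and -0.15 in the telencephalon at 120 min, with unadjusted edgeR p-values of 0.118 and 0.0315. Mao, the monoamine oxidase that breaks down serotonin and dopamine, had 61.3, 63.2, 74.5, 62.5 and 65.6 cpm in challenged telencephalon at 60 min, against 71.9, 81.1, 68.9, 83.8 and 83.1 cpm in controls, with a fold change of -0.24 ± 0.08 (edgeR adjusted p = 0.563). The groups overlapped, and in the diencephalon the fold change was -0.088 ± 0.087.

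**Figure D3:**
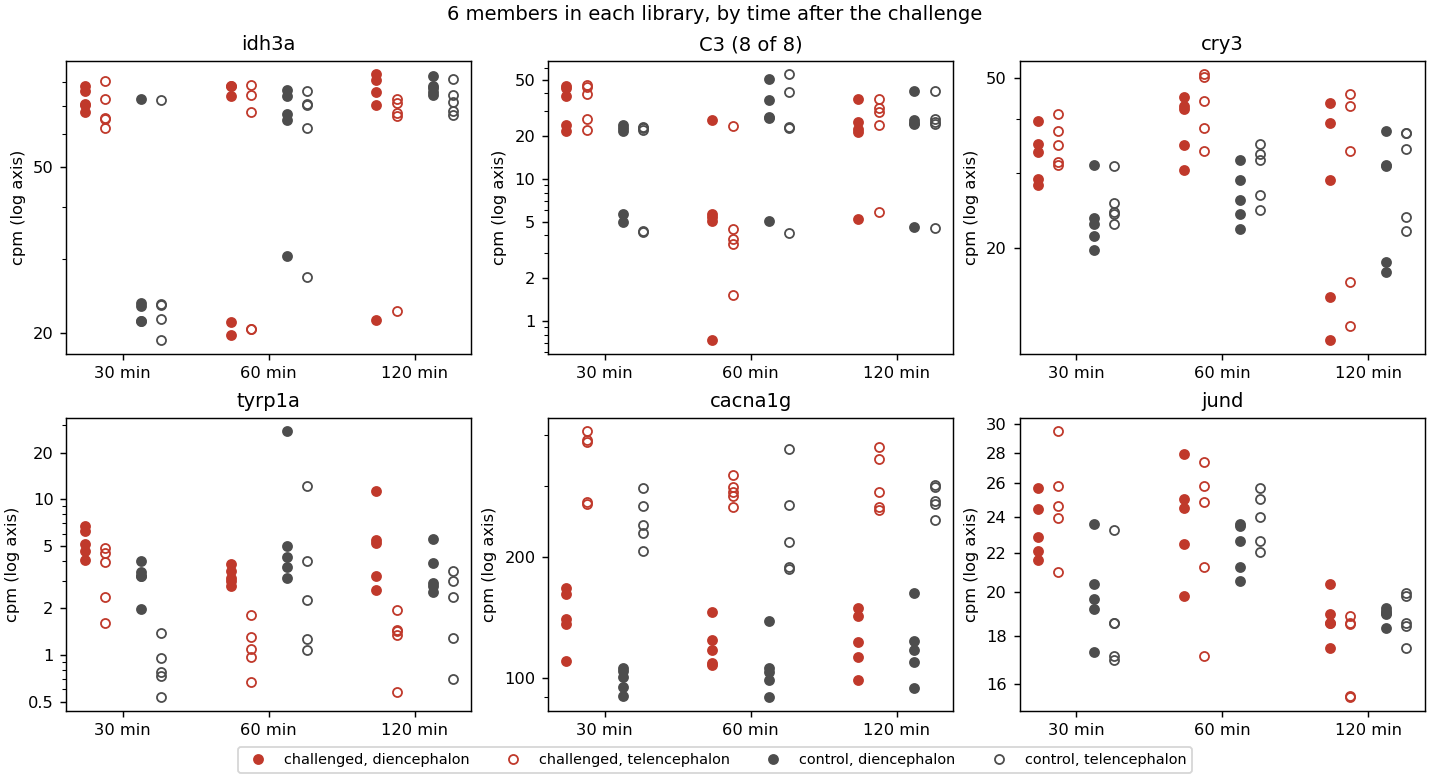
Cpm of 6 members in every library, on a log axis, by time after the challenge, with challenged males in red left of control males in grey, diencephalon filled and telencephalon open. Most challenged males lie above most controls at 30 min, the groups overlap at 60 and 120 min, idh3a and C3 (8 of 8) take separate levels from fish to fish, and 1 control male carries the high tyrp1a values of 60 min.

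The remaining genes of the top 12 had small or negative values at the later times. Akt2 (2 of 2), a kinase of the insulin pathway that headed the ranking, had 75.3, 73.2, 79.1, 71.3 and 70.7 cpm in challenged telencephalon at 30 min, against 61.1, 70.4, 63.1, 60.5 and 58.8 cpm in controls. The log2 fold change was 0.23, and the groups nearly touched, at 70.7 cpm in the lowest challenged male and 70.4 cpm in the highest control. Its later fold changes were -0.10 and -0.079 at 60 min and -0.097 and -0.056 at 120 min. MYOF (1 of 2), a membrane-repair protein of the ferlin family, had 1.26 and 1.13 at 30 min, -0.33 and -0.28 at 60 min and -0.43 and -0.96 at 120 min. The unnamed ENSGACG00000002238, ENSGACG00000004103, ENSGACG00000013271, ENSGACG00000012360 and ENSGACG00000018383 had later values between -0.51 and 0.22, against 30 min values between 0.070 and 1.17. Counts of genes named as 1 of several copies, such as akt2 (2 of 2), MYOF (1 of 2) and ATAD2 (1 of 2), are uncertain in the same way as those of C3 (8 of 8). Just inside the limit, cacng6a, an auxiliary calcium channel subunit, had 0.54 and 0.64 at 30 min and values between -0.019 and 0.049 later.

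Of the 11 members with positive values at all 3 times, trmt61a and ENSGACG00000012348 are described here. Single fish carried much of the later trmt61a values and of the 60 min values of ENSGACG00000012348. Trmt61a, the catalytic subunit of a tRNA methyltransferase, had 0.26 and 0.42 at 30 min, 0.29 and 0.39 at 60 min and 0.27 and 0.42 at 120 min, each with a standard error of 0.16 in the diencephalon and 0.20 in the telencephalon and an adjusted edgeR p of at least 0.747 at the later times. Its challenged males overlapped the controls at every time, as in the diencephalon at 120 min, with 11.8, 11.8, 11.6, 12.0 and 20.7 cpm in challenged males, against 10.4, 10.5, 10.1, 13.9 and 11.6 cpm in controls. Without challenged fish 36 the trmt61a values of 60 min were 0.13 and 0.15, and without challenged fish 29 those of 120 min were 0.075 and 0.19. The unnamed ENSGACG00000012348 had 1.16 and 1.05 at 120 min, with 19.8, 34.2, 34.2, 17.7 and 26.9 cpm in challenged diencephalon and 1.89, 37.4, 2.35, 2.67 and 15.7 cpm in controls. Its highest control exceeded every challenged male, and 3 controls were below 3 cpm. Without that control, fish 10, the 120 min values were 2.24 and 2.14. At 60 min it had 0.45 and 0.044, and without challenged fish 4 -0.19 and -0.53. Both genes were singled out after their later values were seen.

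Levels that differed from fish to fish in both regions alike were common among the members. Both regions came from the same animals. Each gene's deviation from its group mean was correlated between the regions over the 20 fish of 60 and 120 min. The ranking did not use these fish. The median Pearson r was 0.73 for the members and 0.54 for all eligible genes, and r exceeded 0.8 for 41 of the 100 members and for 15.3% of eligible genes. The highest were idh3a (0.99), ENSGACG00000001742 (0.98), C3 (8 of 8) (0.98), rpa3 (0.97), ENSGACG00000012348 (0.97) and cry3 (0.97). The lowest were ENSGACG00000007267 (0.21), ENSGACG00000004237 (0.24), mao (0.29) and ENSGACG00000012687 (0.35). Each point is 1 fish read in both regions, and the 2 t values that chose the members came from the same 10 fish, so they are not independent of each other.

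Sharp levels were rare. A split of the 30 fish by a gap of at least 1.5-fold, with at least 3 fish on each side and the same fish on each side in both regions, was present in 3 members (idh3a, C3 (8 of 8) and ENSGACG00000001742) and in 0.645% of eligible genes. This criterion was set after the values of idh3a were seen. The 30 fish include those of 30 min that chose the members, so genes with levels split by treatment there were favoured by the choice. The 3 members can therefore not be read against the share of all eligible genes. For C3 (8 of 8) 9 fish were low, at 0.729 to 5.70 cpm in the diencephalon and 1.52 to 5.80 cpm in the telencephalon, and 21 were high, at 21.3 to 50.8 and 21.9 to 54.5 cpm. Of its high fish, 5 of 5 challenged and 3 of 5 controls were of 30 min, and 1 of 5 challenged and 4 of 5 controls of 60 min.

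Few pairs of members varied closely together from fish to fish. Over the same 20 fish the median correlation between pairs of members was 0.019 in the diencephalon and 0.033 in the telencephalon, with 4 and 5 of 4950 pairs above 0.8. Pairs of all eligible genes were not computed, so the members cannot be set against them here. The closest pairs were C3 (8 of 8) with ENSGACG00000001742, ENSGACG00000002612 with ENSGACG00000002616, ENSGACG00000012360 with ENSGACG00000012348, and ENSGACG00000018092 with ENSGACG00000018093, all singled out after their values were seen. The members with a position were spread over 15 chromosomes and several scaffolds. Of these, 4 lay on groupXIX, and gabbr1b and gnrhr1 lay 190003 bases apart on scaffold_101.

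**Figure D4:**
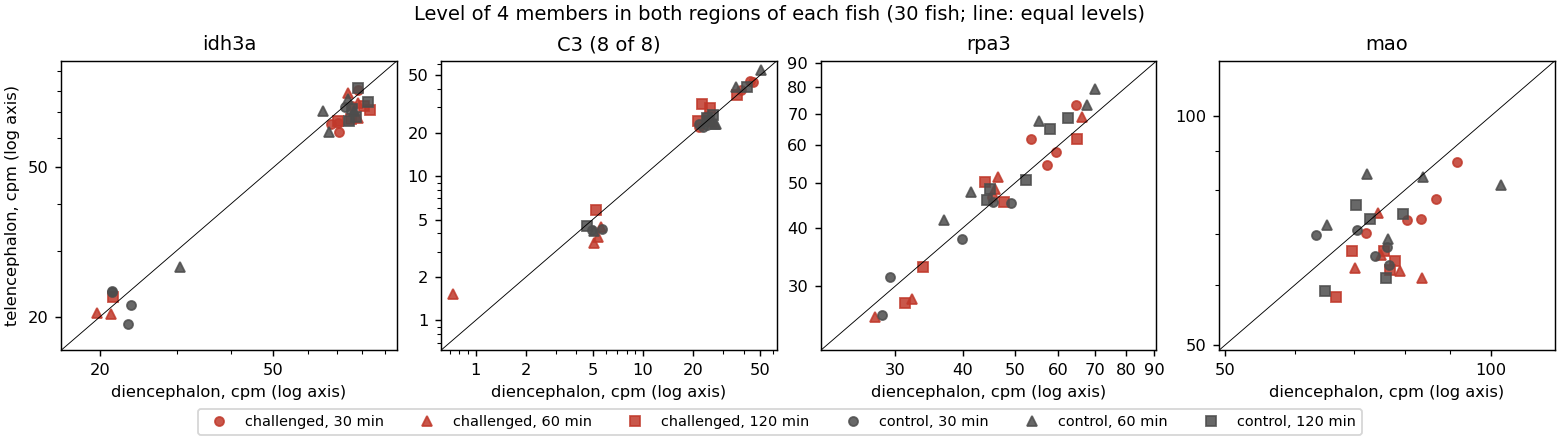
Cpm of 4 members in the diencephalon (x) and the telencephalon (y) of each of the 30 fish, on log axes, challenged males in red and control males in grey, with 1 symbol for each time. Idh3a and C3 (8 of 8) fall into separate levels and rpa3 into a continuous range, all close to the line of equal levels, while mao (r = 0.29) shows little relation between regions.

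The members were also compared between regions in the control males of 60 and 120 min, again fish outside the ranking. Their median log2 difference, diencephalon minus telencephalon, was -0.073, against 0.0081 over all genes. An adjusted edgeR p under 0.1 was reached by 45 members (56.9% of all genes). Of these, 14 members were higher in the diencephalon and 31 higher in the telencephalon, where 28.6% and 28.3% of all genes passed in those directions. When the fish was entered as a replicate block 74 members passed (71% of all genes). Of these, 28 members were higher in the diencephalon and 46 in the telencephalon, where 35.6% and 35.3% of all genes passed. More members were higher in the telencephalon than in the diencephalon in both fits. The fit without the block did not pair the 2 regions of a fish, whose levels correlated more for members than for all genes. Its counts of members can therefore not be read against the shares of all genes. With the block the 46 lay above the 35.3% of all genes and the 28 below the 35.6%. Most differences were small, with 2 members past 2-fold without the block and 4 with it. The share of all genes past 2-fold was not counted.

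Among the members higher in the telencephalon were several channels. Cacna1g had a log2 difference of -1.22 ± 0.11 (edgeR adjusted p = 2.6e-14), cacng6a -1.16, cnga3a -0.96 ± 0.35 and serping1 -0.91 ± 0.39, and gabbr1b had -0.70 ± 0.08. On the other side were tyrp1a with 0.86 ± 0.35 (edgeR adjusted p = 0.032), ENSGACG00000004237 with 0.83, ATAD2 (1 of 2) with 0.82 ± 0.25 and ENSGACG00000018092 with 0.71. The differences of the split members were 0.040 ± 0.28 for idh3a and -0.026 ± 0.47 for C3 (8 of 8). The next largest carriers of reads, mpp2b, a scaffold protein of the MAGUK family, and the unnamed ENSGACG00000013268, had -0.58 and -0.34.

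**Figure D5:**
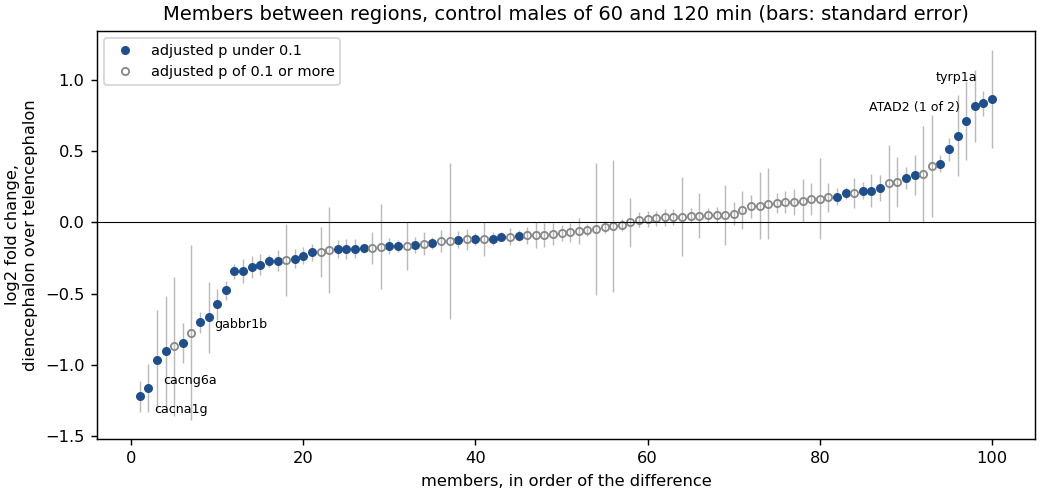
Log2 fold change, diencephalon over telencephalon, of each of the 100 members in control males of 60 and 120 min, in order, with standard errors and with members past an adjusted p of 0.1 filled. Cacna1g at -1.22 and cacng6a at -1.16 are lowest and tyrp1a at 0.86 highest, and more filled points lie below 0 (31) than above it (14).

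Whether challenge acted differently in the 2 regions was tested as a region by treatment term at each later time. No member and no gene passed (0% called at both times), with 0 members at an unadjusted p under 0.05 at 60 min and 0 at 120 min, where 3.32% and 1.45% of all genes did. The lowest adjusted p among members was 1.00 at both times. That fit did not pair the 2 regions of a fish, whose levels correlated more for members than for all genes. The members' counts at an unadjusted p can therefore not be read against the shares of all genes. With the fish as a replicate block 0 members were called at 60 min and 0 at 120 min.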

How the data were processed

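RNA of the diencephalon and telencephalon of 30 male sticklebacks was made into 60 poly-A, strand-specific libraries. After trimming, the authors used TopHat2 (2.0.8) to align the reads to the repeat-masked Ensembl release 75 stickleback genome and counted reads per gene with HTSeq (0.6.1), leaving out reads on more than 1 gene, and deposited the raw counts. No column of the count table was left unused.

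The 100 genes followed the ranking given above, with a pseudocount of 1 cpm. The members, the gene lists and the tests were chosen with earlier results of these data known. The quasi-likelihood test of edgeR (4.0.16, R 4.3.3) was fitted per region to all 30 libraries (time, and treatment within time) after TMM scaling, for genes with at least 1 cpm in 2 libraries, and the 6 comparisons were adjusted together by the Benjamini-Hochberg method with a threshold of 0.1. Errors of log2 fold changes are standard errors. The genes named were the 12 highest in the ranking, the 3 on each side of its limit, the members of the lists, the 3 members with the smallest p in each later comparison, the 6 most and 4 least correlated between regions, the 3 with most reads and the 4 most different between regions in each direction. Alternatives were edgeR's likelihood ratio test, DESeq2 (1.42.0), other scaling and filters, other numbers of members, the library index as a term, and leaving out each fish.

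Both libraries of a fish carry the same fish number in the labels. Their deviations from the group means correlated positively in 30 of 30 fish (mean r 0.59, lowest 0.29, against -0.019 between different fish), so the comparison between regions is also given with the fish as a replicate block. Each control was tested alongside a challenged male, but the labels do not say which fish belonged together, so the groups were compared unpaired. The fish are separate males, and 120 replicate pairs all differed by more than counting error. Tests were checked on simulated data. Gene names and positions came from the study's supplementary tables and match Ensembl release 75.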

Additional observations from a re-analysis of the deposited data

Results flagged for a closer look

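In the telencephalon of the control males of 30 min, the mean deviation of the 100 members from their average was -0.256471 in fish 33 on the log2(cpm + 1) scale, while the other 4 controls lay between -0.225 and -0.214. Its distance from the nearest of them, divided by the range of the group, exceeded Dixon's critical value of 0.71 for 5 samples. It was the only such fish in 12 groups checked. Chance alone gives about 1 in 20 independent groups. That rate need not hold here, since the 12 groups share fish between regions and those of 30 min chose the members. These fish took part in choosing the members, and in the diencephalon the same fish had -0.216, inside the range of the other controls.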

How the results depend on the processing

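The number of members called at 60 and 120 min was 0 in both regions under every alternative run, and so were those of the joint and region by treatment tests. Of the counts of called members, only that of members differing between regions in control males moved past 1.5 times its value, to 74 with the fish as a replicate block and 45 without, and 42 to 45 when single fish were left out. With single later fish left out, the members' median log2 fold change ran from -0.043 to 0.0025 in the diencephalon and from -0.077 to -0.035 in the telencephalon at 60 min, and from -0.0035 to 0.019 and from -0.021 to 0.014 at 120 min. Counts of members at an unadjusted p under 0.05 moved more, to 7 to 13 of 100 in the diencephalon and 7 to 16 in the telencephalon at 60 min, and 2 to 7 and 3 to 8 at 120 min, without single fish. The membership itself was less stable: when the ranking was repeated without 1 of the 10 fish of 30 min, 53 to 71 of the 100 genes were chosen again, and the medians of the lists so chosen ran from -0.056 to -0.021 and from -0.096 to -0.049 at 60 min, and from -0.027 to 0.019 and from -0.028 to 0.026 at 120 min. Ranking by the edgeR F statistic chose 52 of the 100 again. With the 50 highest genes in place of 100, the medians were -0.068 and -0.093 at 60 min and -0.0073 and -0.021 at 120 min. The median correlation between regions was 0.70 to 0.74 under other settings and 0.72 to 0.77 without single fish. The number of fish, 5 in each group, limits the precision for single members.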
